A study of Mus musculus with 5 samples.

Results

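Collecting duct principal cells were taken from mouse kidneys of a unilateral ischemia-reperfusion (UIR) study as cells selected on their own transcripts. A cell had to hold at least 1000 unique molecular identifiers (UMIs, each counting 1 captured transcript), at least 200 genes and at most 25% mitochondrial UMIs. It also had to hold at least 3 UMIs of Aqp2, at most 1 UMI each of Atp6v1g3, Slc12a3, Slc12a1 and Lrp2, and 0 UMIs of Ptprc. These criteria gave 92 principal cells of 53809 cells that passed the depth, gene and mitochondrial limits, a share of 0.171% (95% Clopper-Pearson interval 0.138 to 0.210). The groups were Sham and AKI on day 1, day 3, day 14 and day 28, with 1 sample each. The AKI samples came from left kidneys after 35 min of clamping of the renal pedicle, in male C57BL/6J mice 6 to 8 weeks old, and the labels name 3 mice for each kidney sample without saying whether their cells were pooled before capture. The labels do not tie the 5 sequencing libraries to these groups, so all cells were treated as 1 pooled sample, libraries are named by number only, and no test between conditions was possible. The labels also give a cell type of goblet cell for this kidney tissue, and of 6 goblet cell genes (Muc2, Zg16, Fcgbp, Spdef, Tff3 and Clca1) 5 had 0 UMIs in the principal cells and Fcgbp had 4.

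Principal cells line the collecting duct and do the last regulated reabsorption of water and sodium. Vasopressin acts through its receptor V2 (gene Avpr2) and cAMP to move aquaporin-2 to the apical membrane, and water leaves on the other side through aquaporin-3 and aquaporin-4. Aldosterone acts through the mineralocorticoid receptor to open the epithelial sodium channel (ENaC, subunits Scnn1a, Scnn1b and Scnn1g), and the enzyme encoded by Hsd11b2 keeps cortisol-like steroids off that receptor. The neighbouring intercalated cells handle acid and base, and the connecting tubule upstream shares ENaC and aquaporin-2 with the collecting duct.

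Promoter sequences are shown for the genes at both ends of the vasopressin pathway, Aqp2 and Avpr2, and for Aqp3. Each is the 250 bases before the start in RefSeq (GRCm38.p6). Capitals mark the letters AGATAA, bound by GATA factors, or TGACG, a part of the cAMP response element, on either strand.
Aqp2 (chr15:99578806-99579055, plus strand): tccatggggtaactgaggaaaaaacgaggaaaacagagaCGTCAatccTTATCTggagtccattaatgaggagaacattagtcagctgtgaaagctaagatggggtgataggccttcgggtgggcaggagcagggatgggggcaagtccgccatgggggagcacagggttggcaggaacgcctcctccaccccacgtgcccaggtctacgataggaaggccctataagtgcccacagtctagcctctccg
Aqp3 (chr4:41098184-41098433, minus strand): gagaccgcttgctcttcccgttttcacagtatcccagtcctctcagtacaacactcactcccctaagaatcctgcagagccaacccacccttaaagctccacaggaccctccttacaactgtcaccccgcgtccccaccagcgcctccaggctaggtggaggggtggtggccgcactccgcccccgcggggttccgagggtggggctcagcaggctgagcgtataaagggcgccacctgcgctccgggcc
Avpr2 (chrX:73891852-73892101, plus strand): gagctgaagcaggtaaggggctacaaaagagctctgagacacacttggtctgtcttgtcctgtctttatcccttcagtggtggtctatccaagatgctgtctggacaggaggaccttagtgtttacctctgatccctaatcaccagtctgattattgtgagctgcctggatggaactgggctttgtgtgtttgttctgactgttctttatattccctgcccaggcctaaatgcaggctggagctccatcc
The Aqp2 window held both letter groups, 197 to 202 and 207 to 211 bases before the start, and the other windows held neither. Over all 32851 windows, 9.99% held AGATAA and 17.8% held TGACG. Among 49 windows of the 34 matched genes that were highest in principal cells, the shares were 8.16% and 20.4%, and a match is a description of letters and not a binding site.

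Levels are in CPM: the UMIs of a gene were summed over the cells of a class and scaled to a total of 1000000 UMIs for that class. Each level carries a 95% exact Poisson interval, and each ratio of levels, on the log2 scale, a 95% conditional binomial interval. These intervals, and those of shares, cover counting error only and leave out the spread between cells and mice. A count of 0 UMIs was taken as 3 UMIs over the class where a fold was needed. Other counts were kept, so a gene with 1 UMI in a class could get a larger fold than a gene with 0 UMIs. The comparison classes were picked in the same way by their own gene and comprised 81 intercalated cells (Atp6v1g3), 502 distal convoluted tubule cells (Slc12a3), 412 thick ascending limb cells (Slc12a1) and 27164 proximal tubule cells (Lrp2).

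Libraries 1 to 5 supplied 5, 15, 56, 4 and 12 principal cells, with 36340, 118031, 527516, 25728 and 72056 UMIs. Most pooled UMIs thus came from library 3, which alone held at least 20 principal cells. In the same order, the libraries supplied 11, 17, 45, 2 and 6 intercalated and 53, 45, 235, 13 and 156 distal convoluted cells. Thick ascending limb cells numbered 104, 61, 161, 16 and 70. Counts of libraries given below thus rest on few principal cells outside library 3. The median principal cell held 6779 UMIs from 2378 genes. By library, median depth ranged from 5243 (library 2) to 8292 UMIs (library 1). Mitochondrial UMIs took a median of 9.46%, with 8.33% in library 3 and 16.1% in library 5. Of the barcode sequences, 300 occurred in more than 1 library among all filtered cells, and 1 of the 92 principal cells had such a barcode.

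The gate was narrow. Of 229 cells with at least 3 Aqp2 UMIs, 137 were left out, 77 of them with more than 1 Atp6v1g3 UMI, 61 with more than 1 Lrp2 UMI, 43 with Ptprc, 5 with Slc12a3 and 3 with Slc12a1, and some failed on several genes. Just inside the gate, 6 cells held 3 Aqp2 UMIs, with Hsd11b2 at 1374 CPM and Aqp3 at 605 CPM. Just outside it, 14 cells that met every other criterion held 2 Aqp2 UMIs, with Hsd11b2 at 3153 CPM and Aqp3 at 519 CPM. The 133 cells with 1 Aqp2 UMI had Hsd11b2 at 212 CPM and Aqp3 at 22.1 CPM, beside 12000.1 CPM of the proximal tubule genes Slc34a1, Miox and Kap summed.

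**Figure D1:**
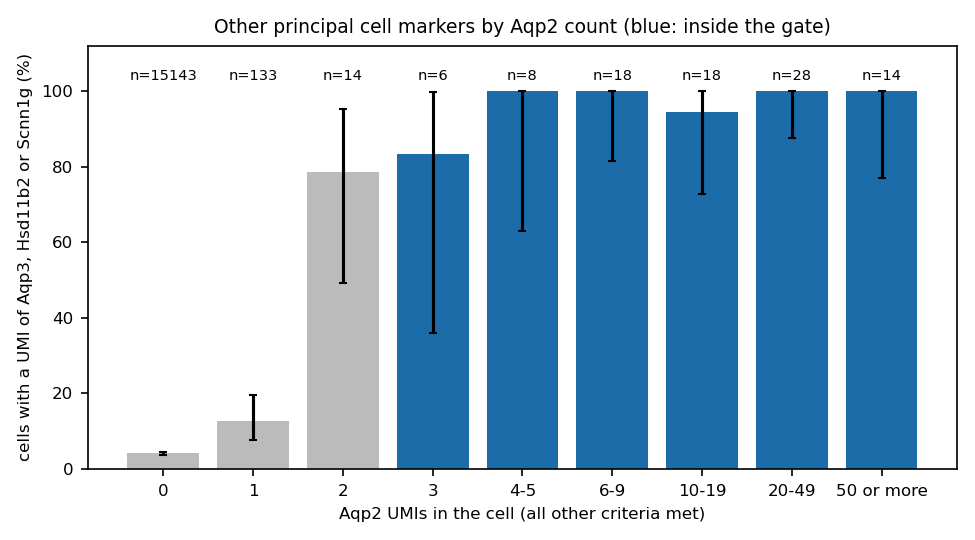
Share of cells with at least 1 UMI of Aqp3, Hsd11b2 or Scnn1g (vertical axis, percent) by the number of Aqp2 UMIs in the cell (horizontal axis), for cells that met every other criterion. Blue bars are inside the gate, grey bars outside it, error bars are 95% Clopper-Pearson intervals and n is the number of cells. The share was 4.13% at 0 Aqp2 UMIs, 12.8% at 1, 78.6% at 2 and between 83.3% and 100% from 3 upwards.

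The name of the class was checked with 3 markers that the gate did not use. The connecting tubule was not among the classes compared, so this check cannot tell its cells from collecting duct cells. A UMI of Aqp3, Hsd11b2 or Scnn1g was present in 90 of the 92 cells, or 97.8% (92.4 to 99.7). The 2 cells without one held 17 and 3 Aqp2 UMIs. The share was 63.0% in intercalated cells at a median depth of 6860 UMIs. In proximal tubule cells, which should lack these transcripts, it was 9.73% at 6945.5 UMIs, most of it Aqp3. With every cell thinned to 1000 UMIs the shares were 90.2% in principal, 27.2% in intercalated and 1.54% in proximal tubule cells. Hsd11b2 alone was seen in 86, Aqp3 in 84 and Scnn1g in 67 of the 92 cells, against 0.733%, 8.94% and 0.191% of proximal tubule cells.

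Aqp3 and Avpr2 were higher in principal cells than in each of the other distal classes, in 5 of 5 libraries. Aqp2, which chose the cells and is given as a description, stood at 3128 CPM (chromosome 15, 99579055 to 99584547, plus strand). Aqp3 (chromosome 4, 41092722 to 41098183, minus strand), the basolateral channel, was at 2642, 779, 701, 699.6 and 1790.3 CPM in libraries 1 to 5. All 5 values lay above those of the other distal classes in the same library, and libraries 1 and 5 were the highest. Pooled, Aqp3 was at 904 CPM (839 to 974), against 148 CPM in intercalated, 6.37 in distal convoluted and 2.28 in thick ascending limb cells, log2 ratios of 2.61 (2.29 to 2.94), 7.15 (6.51 to 7.87) and 8.63 (7.58 to 9.95). Avpr2, the vasopressin receptor, was at 275, 93.2, 125, 311 and 278 CPM in libraries 1 to 5, and at 3.30, 1.27 and 7.82 CPM in the 3 distal classes. Aqp3 was seen in 91.3% of principal and 43.2% of intercalated cells. Aqp4, the second basolateral channel, came from fewer cells: 87 UMIs in 17 cells, 23.0% of them in 1 cell, and 0 UMIs in library 4. None of the 3 distal classes held an Aqp4 UMI. With 0 taken as 3 UMIs, principal cells were 22.5-fold higher than intercalated cells, and the interval of the log2 ratio began at 4.17. Downstream of the receptor, Gnas, the stimulatory G protein, was at 412 CPM and Adcy6, an adenylyl cyclase, at 21.8 CPM, against 478 to 572 and 41.2 to 48.7 CPM in the distal classes. The urea transporter Slc14a2 had 8 UMIs in 4 cells.

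**Figure D2:**
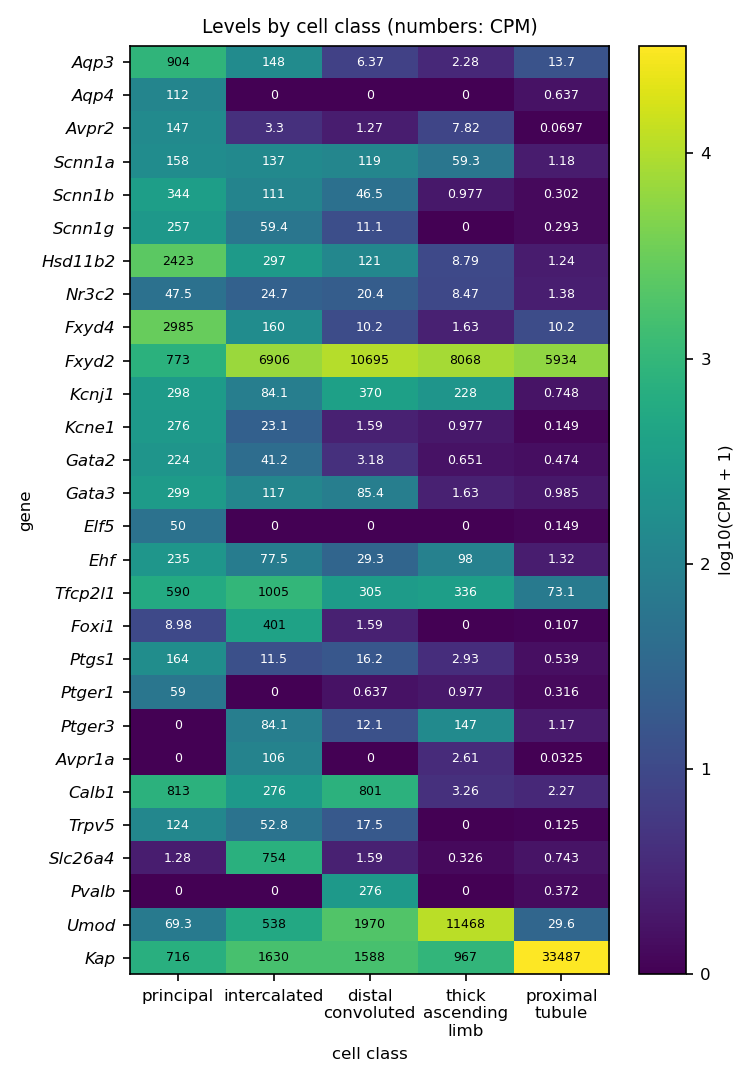
Level of 28 genes (rows) in 5 cell classes (columns); colour is log10(CPM + 1) and the printed numbers are CPM, each pooled over the cells of the class. Hsd11b2, Fxyd4 and Aqp3 are at 904 to 2985 CPM in principal cells, where Fxyd2 is at 773 CPM against 5934 to 10695 CPM elsewhere.

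Of the steroid pathway, Hsd11b2 and the beta and gamma subunits of ENaC were higher in principal than in intercalated cells, and the interval for the alpha subunit included no difference. Hsd11b2 (chromosome 8, 105518755 to 105523988, plus strand) was at 3357, 3338, 1977, 2721 and 3608 CPM in libraries 1 to 5. The lowest library, library 3, still lay above every library of the other distal classes. The pooled 2423 CPM (2315 to 2535) compares with 297 CPM in intercalated and 121 CPM in distal convoluted cells, log2 ratios of 3.03 (2.81 to 3.26) and 4.32 (4.16 to 4.48). Within library 3 these ratios were larger, 4.08 and 8.95. Scnn1g was at 468, 356, 212, 155 and 347 CPM by library and at 59.4 and 11.1 CPM in intercalated and distal convoluted cells. It had 0 UMIs in thick ascending limb cells. Scnn1b, at 344 CPM (304 to 387), was higher than in intercalated cells by a log2 ratio of 1.64 (1.25 to 2.05). Scnn1a was at 158 CPM (131 to 188) against 137 CPM in intercalated cells, a ratio of 0.20 whose interval (-0.21 to 0.62) includes no difference. All 3 subunits were seen in 43 cells, 2 in 29, 1 in 13 and none in 7. Nr3c2, the mineralocorticoid receptor, was at 47.5 CPM from 37 UMIs. Sgk1, the kinase that aldosterone raises, was at 141 CPM against 139 CPM in intercalated cells, and Nedd4l, the ligase that removes ENaC from the membrane, at 92.3 against 150.1 CPM.

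Of the small FXYD subunits of the sodium pump, Fxyd4 was higher and Fxyd2 lower than in the other distal classes. Fxyd4 was at 3715, 2355, 2862, 2409.8 and 4746 CPM in libraries 1 to 5 and in 91 of the 92 cells. In intercalated cells it was at 160.0 CPM, and in distal convoluted and thick ascending limb cells at 10.2 and 1.63 CPM. Fxyd2 was at 27.5, 279.6, 736, 4120.0 and 1041 CPM by library, above Fxyd4 in library 4, and 17 cells with high Klk1, described further on, held 384 of its 603 UMIs. Pooled, it stood at 773 CPM in principal cells and 6906, 10695 and 8068 CPM in the same classes, log2 ratios of -3.16, -3.79 and -3.38, each lower in 5 of 5 libraries. Atp1b1, the beta subunit of the pump, was at 3185 CPM and within 2-fold of every distal class. Over the 12 sodium genes of sufficient level (at least 50 CPM in either class), 4 were at least 2-fold higher and 1 at least 2-fold lower than in intercalated cells. Over all 3393 genes compared in this way, 9.4% were at least 2-fold higher and 9.46% at least 2-fold lower. Against distal convoluted cells the counts were 5 and 2 of 12, where 9.18% and 6.28% of all 3246 genes lay past 2-fold. Against thick ascending limb cells they were 6 and 2 of 12, with 8.6% and 6.04% of all 3279 genes. The lists and the cells were chosen with these data in view, so the counts describe and do not test.

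Among potassium channel genes, Kcne1, a regulatory subunit, stood apart with 276 CPM and 23.1, 1.59 and 0.977 CPM in the other distal classes. Kcnj1, the secretory channel ROMK, was at 298 CPM (261 to 338), higher than in intercalated cells (84.1 CPM) and near the 370 CPM of distal convoluted and 228 CPM of thick ascending limb cells. Kcnj1 by library was 605, 424, 193, 117 and 763 CPM, with libraries 1 and 5 the highest, as for Aqp3. The subunits of the large-conductance channel, Kcnma1 and Kcnmb4, had 0 UMIs among the 779671 of principal cells.

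Several transcription factors of the collecting duct were higher in principal cells than in the other distal classes. Gata2 was at 224 CPM in 66 of 92 cells, against 41.2, 3.18 and 0.651 CPM in intercalated, distal convoluted and thick ascending limb cells, and was higher than each in all 5 libraries. Gata3 was at 299 CPM, with log2 ratios of 1.35 (0.96 to 1.76), 1.81 (1.55 to 2.07) and 7.52 (6.28 to 9.16) to these classes. Elf5, an ETS factor, had 39 UMIs in 21 principal cells and 0 in the other distal classes. Ehf, of the same family, was at 235 CPM against 29.3 to 98.0 CPM. Tbx3 was at 39.8 CPM from 31 UMIs, and at 0 to 0.651 CPM in the distal classes. Tfcp2l1, which both collecting duct cell types use, was at 590.0 CPM and lower than the 1005 CPM of intercalated cells. Foxi1, the master factor of intercalated cells, had 7 UMIs in 4 cells (8.98 CPM), against 401 CPM there. Of 16 factors compared with intercalated cells, 7 were at least 2-fold higher and 1 (Foxi1) at least 2-fold lower, beside the 9.4% and 9.46% of all genes. Against distal convoluted cells 7 of 15 were higher and 2 lower (9.18% and 6.28% of all genes). Against thick ascending limb cells 7 of 16 were higher and 1 lower (8.6% and 6.04%).

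Notch signalling keeps principal cells from becoming intercalated cells, with the ligand on one cell and the receptor on its neighbour. The ligand Jag1 was at 14.1 CPM in principal and 98.99 CPM in intercalated cells, a log2 ratio of -2.81 (-3.89 to -1.87). The ligand Dll4 had 0 UMIs in principal and 8 UMIs (13.2 CPM) in intercalated cells. The target Heyl had 12 UMIs in principal cells and 1 in intercalated cells, a log2 ratio of 3.22 with a wide interval (0.46 to 8.64). Hes1, another target, was at 156 and 130 CPM, and the receptor Notch1 at 25.7 and 34.6 CPM. Most genes of this list were too low to compare, Dll4, Heyl and Notch1 among them, and 4 of its 13 reached 50 CPM in either class. Of these 4, 1 was at least 2-fold higher, 1 (Jag1) at least 2-fold lower and 2 lay between, beside 9.4% and 9.46% of all genes higher and lower.

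Of 6 genes of endothelin, prostaglandin and related signalling compared with intercalated cells, 2 were at least 2-fold higher and 2 lower, beside the 9.4% and 9.46% of all genes. Against distal convoluted cells 4 of 4 were higher (9.18% of all genes), and against thick ascending limb cells 4 of 5 were higher and 1 lower (8.6% and 6.04%). Ptgs1, which encodes cyclooxygenase 1, was at 164 CPM and seen in 66 of 92 cells, against 11.5, 16.2 and 2.93 CPM in the distal classes. Ptgs2 had 3 UMIs. Ptges, which makes prostaglandin E2, was at 185 CPM, near the 119 CPM of intercalated cells and above the 17.5 and 12.4 CPM of the tubule classes upstream. For its receptors, Ptger1 was at 59.0 CPM with 0 UMIs in intercalated cells, whereas Ptger3 had 0 UMIs in principal cells and stood at 84.1 CPM in intercalated and 147 CPM in thick ascending limb cells. Of the vasopressin receptors, Avpr1a was at 0 UMIs in principal cells and 106 CPM in intercalated cells, and Avpr2 was at 147 and 3.30 CPM. With 0 taken as 3 UMIs, Avpr1a was 27.4-fold lower, and the interval of its log2 ratio ended at -4.44. Endothelin 1 (Edn1) was at 51.3 and 52.8 CPM in principal and intercalated cells.

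Over all genes, 47 were at least 4-fold higher in principal cells than in each of the 3 other distal classes, with at least 50 CPM and a higher level in library 3. They were 1.61% of 2911 genes with that level. Since these are the cells that the gate chose, the count is a description. Of the 47 genes, 32 were higher than all 3 classes in each of the 5 libraries, and 11 were on the lists described here. The leading gene was Krt23, an epithelial keratin, at 80.8 CPM in 35 cells, with 1 UMI in intercalated cells and 0 in the other 2 classes. Its smallest log2 ratio, 5.61 (3.08 to 10.9) to intercalated cells, rests on that 1 UMI. A count of 0 would have been taken as 3 UMIs and given a smaller ratio, so its first place depends on this rule. Sprr2f, of a family of cornified envelope genes with near-identical copies, followed at 918 CPM. It was present in 33 cells and stood at 330, 949, 1122, 0 and 0 CPM in libraries 1 to 5. Grp, the gene of gastrin-releasing peptide, was at 239 CPM in library 3 and at 0 UMIs in the other 4 libraries. Grp, Aqp4, Elf5 and Col26a1, a collagen gene, had 0 UMIs in all 3 classes.

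The other leading genes were Hacd4, a fatty acid enzyme, Avpr2, Fxyd4, Btc, a ligand of the EGF receptor at 97.5 CPM, Mcoln3, a cation channel of endosomes, Kcne1, Ptger1, Apela, a peptide hormone at 478 CPM in 79 cells, Ptgs1, Elf5, S100a14, Arhgdib, a regulator of small GTPases at 203 CPM, and the membrane protein genes Tmem150c, Tmem229a and Tmem45b. Apela was at 743, 618, 383, 233 and 902 CPM by library, and intercalated, distal convoluted and thick ascending limb cells were at 18.1, 1.91 and 42.7 CPM. The highest level among the 47 genes was that of Tmsb4x, which encodes the actin-binding peptide thymosin beta 4. It was at 12631, 10455, 9482, 6452 and 7605 CPM in libraries 1 to 5 and was present in all 92 cells. The same libraries gave 433 to 2758 CPM in intercalated, 29.8 to 1538 CPM in distal convoluted and 104 to 1873 CPM in thick ascending limb cells, so that the libraries of principal cells did not overlap those of the other classes. Copies of Tmsb4x elsewhere in the genome can share its reads. Gdf15, a stress-induced cytokine, was at 1095 CPM with 1448 CPM in library 3 and 178 to 666 CPM in the others. Library 3 held 764 of its 854 UMIs, and 16.2% of the UMIs lay in 1 cell. In library 2 it was lower than in intercalated cells, at 178 against 267 CPM. Principal cells were higher than proximal tubule cells in 2 of 5 libraries.

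**Figure D3:**
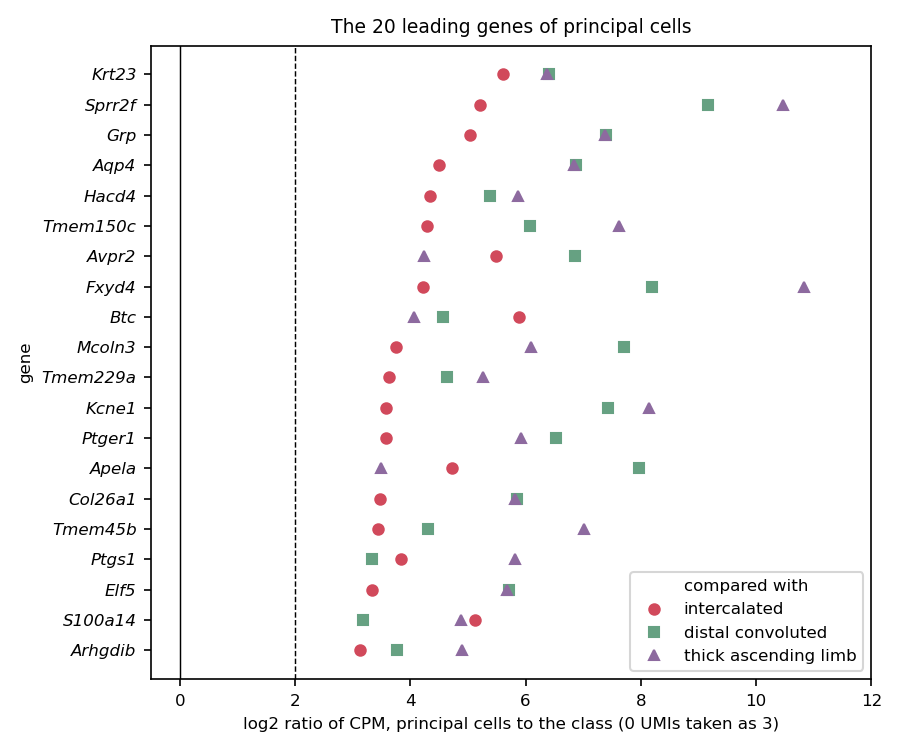
Log2 ratio of CPM (horizontal axis) of principal cells to intercalated, distal convoluted and thick ascending limb cells for the 20 leading genes (rows), with 0 UMIs taken as 3 and a dashed line at 4-fold. The smallest ratio of Krt23, at the top, is 5.61 and rests on 1 UMI in intercalated cells. Points of intercalated cells are mostly the closest to 0. Intercalated cells held 0 UMIs of Grp, Aqp4, Mcoln3, Ptger1, Col26a1 and Elf5. For these genes 3 UMIs over the smallest class total (606137, against 3139851 and 3069987 UMIs) set the intercalated point. Its place there does not rank the classes.

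The genes lowest in principal cells were markers of the other classes, which the gates had set apart by 1 gene each. Against intercalated cells these were Slc26a4 (pendrin), Atp6v0d2, Atp6v1c2, Lmcd1 and Hmx2, with 0 to 2 UMIs in principal and 148 to 754 CPM in intercalated cells. Against distal convoluted cells they were Egf, Ppp1r1a, Abca13, Ckb and Pvalb, at 0 to 5.13 CPM against 276 to 816 CPM. Those pooled levels were higher than in library 3, where distal convoluted cells held the 5 genes at 44.8, 411, 84.2, 130 and 17.4 CPM. Against thick ascending limb cells the lowest genes were Egf, Eprn, Ppp1r1a, Umod and Cldn10. Egf in thick ascending limb cells was at 1147 CPM pooled and 41.5 CPM in library 3. Umod, which encodes the most abundant urinary protein, was at 69.3 CPM, and 70.4% of its 54 UMIs lay in 1 cell. Car2 and Rhcg, of acid and ammonia transport, were kept at 681 and 331 CPM, against 2087 and 302 CPM in intercalated cells.

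The genes that the gates used were left out of the following marker sums. Over 5 intercalated markers, principal cells held 19.2 CPM (0 to 67.8 by library) and intercalated cells 2250.3 CPM. Of 4 distal convoluted markers they held 159 CPM (27.5 to 180), of which Wnk1 was 150.1 CPM and Pvalb 0, against 2120.2 CPM in distal convoluted cells. Of 4 thick ascending limb markers they held 75.7 CPM (0 to 102), with Ptger3 at 0, against 12402 CPM in thick ascending limb cells. The 5 connecting tubule markers (Calb1, Slc8a1, Trpv5, S100g and Klk1) gave the highest of these sums in principal cells, 12404 CPM (688 to 83178 by library). Their sum was 14112, 5194 and 3907 CPM in intercalated, distal convoluted and thick ascending limb cells. All 4 fibroblast and pericyte markers and both haemoglobin genes were at 0 UMIs, as were Pecam1, Kdr and Emcn of 4 endothelial markers, while Egfl7 had 2 UMIs. The 4 leukocyte markers summed to 39.8 CPM (31 UMIs), with 14 UMIs of Cd74, 10 of S100a8, 7 of Lyz2 and 0 of Cd3e. By library this sum was 27.5, 110, 32.2, 0 and 0 CPM, and it was 56.1 to 222 CPM in the other distal classes. Summed over 6 proximal tubule markers, principal cells held 1968 CPM (550 to 4039), against 50815 CPM in proximal tubule cells, and libraries 1 to 5 gave 550, 822, 1972, 3343 and 4039 CPM. From 4 of these genes, UMIs of the library's free RNA were estimated at 1.66%, 3.72%, 7.34%, 9.12% and 11.96% of the UMIs of principal cells in libraries 1 to 5.

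Calcium-handling genes were unevenly spread over the principal cells. Calb1, the calcium-binding protein of the connecting tubule and late distal tubule, was seen in 71 of 92 cells, or 77.2% (67.2 to 85.3), at 813 CPM. With cells thinned to 1000 UMIs the share was 39.1% (29.1 to 49.9). Without thinning, Calb1 was seen in 44.4% of distal convoluted cells (801 CPM), 28.4% of intercalated, 1.94% of thick ascending limb and 1.38% of proximal tubule cells, the last at a depth of 6945.5 against 6779 UMIs. Pooled Calb1 levels were close in principal and distal convoluted cells, but within library 3 they were 747 and 116 CPM, a log2 ratio of 2.68, and principal cells were higher in 4 of 5 libraries. S100g, another calcium-binding protein, was at 6263 CPM in 45 cells (48.9%), against 5670 CPM in intercalated cells, where 77.8% of cells held it. Klk1, tissue kallikrein, was at 4856 CPM in 27 cells (29.3%). It was seen in larger shares of the other distal classes, 65.4% of intercalated (7802 CPM), 70.9% of distal convoluted (2702 CPM) and 77.4% of thick ascending limb cells (3142 CPM). In proximal tubule cells, at a median of 6945.5 UMIs against 6779 in principal cells, S100g was seen in 31.4% (98.3 CPM) and Klk1 in 9.49% of cells (21.3 CPM). Klk1 has close relatives in a gene cluster, so that its counts may miss or include reads of these. Trpv5, the apical calcium channel, was at 124 CPM and Slc8a1, the sodium-calcium exchanger, at 348 CPM.

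A limit of 10 Klk1 UMIs, set after the values had been seen, took 17 cells (1 in library 2, 11 in library 3, 3 in library 4 and 2 in library 5). They held 11 to 846 Klk1 UMIs (median 170), and S100g was present in all of them with 74 to 728 UMIs. Together they held 3763 of the 3786 Klk1 UMIs and 4213 of the 4883 S100g UMIs of principal cells. Calb1 and Slc8a1 were also present in all 17, and Trpv5 in 12. Another 17 cells held Aqp4, also a limit set after the values had been seen, and 0 cells belonged to both sets. Sets of this size would share few of the 92 cells in any case, so the lack of overlap describes and does not test. In the Klk1 set, Aqp4 and Grp had 0 UMIs, Lcn2 was in 8 cells with a median of 0 UMIs, and S100a6 was in 4. In the Aqp4 set, Lcn2 was in 14 cells with a median of 88 UMIs, S100a6 in 12 and Grp in 7. Calb1, Slc8a1 and Trpv5 were in 11, 10 and 2 cells of the Aqp4 set, and in 43, 34 and 26 of the 58 cells in neither set. Median depths were 9322 UMIs in the Klk1 set, 8483 UMIs in the Aqp4 set and 6232.5 UMIs in the other 58 cells. Median mitochondrial shares were 12.2%, 7.26% and 9.51%.

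Library 3 supplied 11 of the 17 cells of each set, so the values within it describe mostly the same cells. In library 5 Lcn2 did not set them apart, with 0 and 0 UMIs in 2 Klk1 cells and 5, 0 and 0 in 3 Aqp4 cells. Within library 3, Lcn2 stood at 483 CPM in the Klk1 set and 7793 CPM in the Aqp4 set, with ranges of 0 to 29 and 5 to 196 UMIs per cell. Fxyd4 was at 883 and 4585 CPM, Fxyd2 at 1649 and 420 CPM, Aqp3 at 491 and 1092 CPM, and Wnk1 at 491 and 54.3 CPM. Hsd11b2 (2848 and 1553 CPM), Scnn1g (275 and 190 CPM) and Clu (25315 and 15402 CPM) were less than 2-fold apart. Kap, as a measure of free RNA, was at 425 and 590.0 CPM. The remaining 34 cells of library 3 lay between for Lcn2 (4616 CPM), Fxyd4 (2800.2 CPM) and S100g (1727 CPM, against 23142 and 604 CPM). The gate does not separate connecting tubule cells from collecting duct cells, and whether the Klk1 set is the former was not tested.

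**Figure D4:**
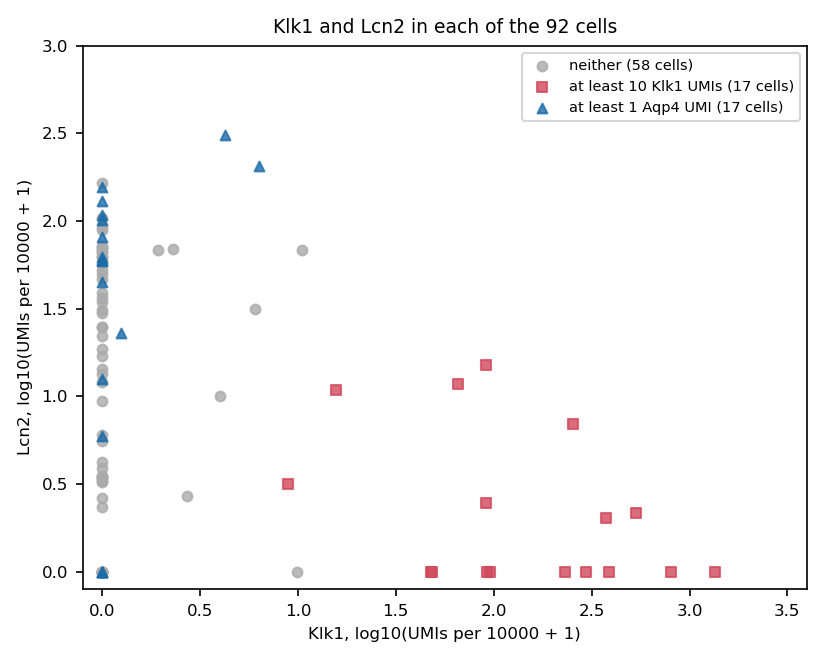
Klk1 (horizontal axis) and Lcn2 (vertical axis) in each of the 92 principal cells, as log10(UMIs per 10000 UMIs of the cell + 1). Red squares are the 17 cells with at least 10 Klk1 UMIs, blue triangles the 17 cells with Aqp4 and grey circles the other 58 cells; the red squares lie to the right and low, with a median of 0 Lcn2 UMIs, and the blue triangles to the left.

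Among epithelial junction and keratin genes, Krt18, a keratin of simple epithelia, was higher than in each of the other distal classes. Krt18 was at 1225 CPM, with log2 ratios of 1.52 (1.33 to 1.73), 2.34 (2.20 to 2.48) and 2.49 (2.34 to 2.63) to intercalated, distal convoluted and thick ascending limb cells, each higher in 5 of 5 libraries. Cldn4 and Cldn7, claudins of the tight junction, were at 459 and 714 CPM, less than 2-fold above intercalated cells. Krt19 was at 217 CPM, with 33.7% of its UMIs in 1 cell. Of 13 genes compared, 3, 7 and 6 (of 14) were at least 2-fold higher than in intercalated, distal convoluted and thick ascending limb cells, beside 9.4%, 9.18% and 8.6% of all genes. In the same order, 0, 0 and 1 were at least 2-fold lower, beside 9.46%, 6.28% and 6.04% of all genes, and 10, 6 and 7 were within 2-fold.

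Clu, Lcn2 and Spp1, 3 genes of the injury and inflammation list of 22, are given by library. Clu (clusterin, a chaperone of injured epithelium) was at 2394, 15869, 21607, 6491 and 402 CPM in libraries 1 to 5. Lcn2, the gene of NGAL, a marker of tubular injury, was at 1293, 2660.3, 4563, 1555 and 97.1 CPM. Spp1 (osteopontin) was at 1981, 5397, 20011, 6996 and 805 CPM. Library 3 was the highest and library 5 the lowest for all 3 genes in principal cells. Wfdc2, of the same list, did not follow this order, at 1734, 2406, 2790.4, 4314 and 1846 CPM, the highest in library 4. Gdf15, a stress-induced cytokine outside the list, was highest in library 3 (1448 CPM) and second highest in library 5 (666 CPM). Library 5 was also the lowest for Clu and Spp1 in intercalated, distal convoluted, thick ascending limb and proximal tubule cells, though for Spp1 in intercalated cells by 3405 against 3412 CPM in library 1. For Lcn2 it stood at 0, 1.35, 0 and 0 CPM in these classes, with intercalated cells also at 0 in library 4. Since the libraries cannot be tied to a group, these differences cannot be told apart from differences between libraries in handling or in the makeup of the cells.

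Pooled, Lcn2 in principal cells was at 3610 CPM (3478 to 3746) in 69 of 92 cells, against 262 CPM in intercalated cells, a log2 ratio of 3.78 (3.55 to 4.02). The ratios to distal convoluted and thick ascending limb cells were 1.24 and 1.04, and 0.97 and 0.89 within library 3. Principal cells were higher in 4 of 5 libraries for each, and lower in library 4, at 1555 CPM against 2610.1 and 1663 CPM. Clu, at 17384 CPM, was 3.72-fold, 2.02-fold and 3.94-fold the level of intercalated, distal convoluted and thick ascending limb cells, but it was higher than in distal convoluted cells in 2 of 5 libraries (2 and 3) only. Spp1 was lower than in thick ascending limb cells by a log2 ratio of -1.59, in 5 of 5 libraries. Wfdc2 was at 2646 CPM, against 1160, 2359 and 3013 CPM. Havcr1, of injured proximal tubule, had 5 UMIs, and Vcam1, Ccl2, Il18 and Mmp7 had 0. Cxcl10 was at 28.2 CPM with 81.8% of its 22 UMIs in 1 cell, and S100a6 at 472 CPM with 41.3% in 1 cell. Of the injury and inflammation list, 4 of 10 genes were at least 2-fold higher and 3 lower than in intercalated cells, 3 and 4 of 13 against distal convoluted cells, and 2 and 7 of 13 against thick ascending limb cells. The shares of all genes higher and lower were 9.4% and 9.46%, 9.18% and 6.28%, and 8.6% and 6.04%.

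**Figure D5:**
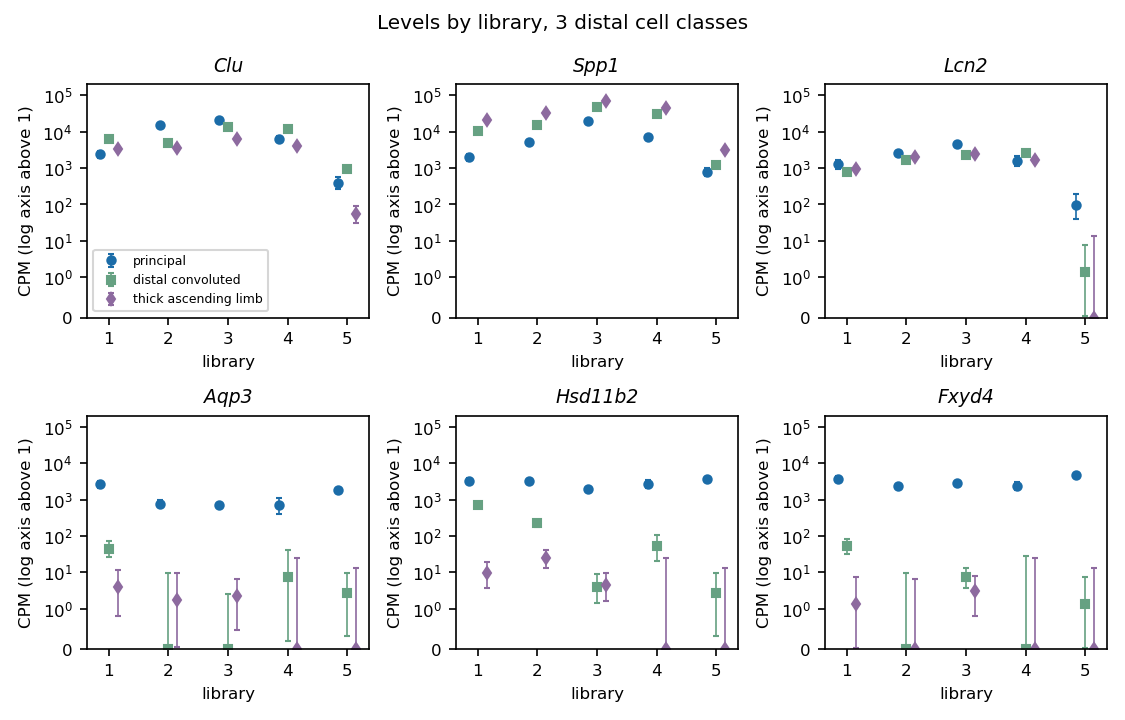
CPM (vertical axis, log scale above 1) in libraries 1 to 5 (horizontal axis) of the injury genes Clu, Spp1 and Lcn2 and the principal cell genes Aqp3, Hsd11b2 and Fxyd4, in principal, distal convoluted and thick ascending limb cells; error bars are 95% Poisson intervals. Clu, Spp1 and Lcn2 are highest in library 3 and lowest in library 5 in principal cells, while Fxyd4 in principal cells stays between 2355 and 4746 CPM.

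Across libraries, 433 of 1124 genes that reached 200 CPM in 1 library had Poisson intervals that did not overlap between their highest and lowest library. With 4 and 5 cells in libraries 4 and 1, single cells can set such values. Klk1 (57292 CPM in library 4 and 0 in library 1) and S100g (24642 CPM and 0) had the widest range, and 3 of the 4 cells of library 4 are in the Klk1 set described above. Clu, Fxyd2, Lcn2 and Spp1 followed. Gm42418, a locus that takes up ribosomal RNA reads, ranged from 688 CPM in library 1 to 14226 CPM in library 4, and Gpx3, a proximal tubule product, from 110 to 1866 CPM in the same libraries. Ly6a, an interferon-responsive surface gene, was highest in library 4 (4159 CPM), Chchd10, a mitochondrial protein gene, in library 5 (1624 CPM), and Hexim1, an inhibitor of transcription elongation, in library 1 (330 CPM). S100a6 was at 643 CPM in library 3 and 0 in library 5.

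Immediate early genes, which enzymatic digestion of tissue can induce, were measured together with heat shock genes. Of these 14 genes, 10 were within 2-fold of intercalated cells, 11 of distal convoluted and 11 of thick ascending limb cells. Over all genes compared, 2753 of 3393, 2744 of 3246 and 2799 of 3279 were within 2-fold, so the 14 genes were no closer than genes in general. Fos was at 2227 CPM against 2168 to 2409 CPM in the other distal classes. Atf3 was lower in principal cells, at 417 CPM against 1491, 916 and 1245 CPM, in 5 of 5 libraries each. Of osmotic stress genes, Slc5a3, the myo-inositol transporter, was at 65.4 CPM against 140, 334 and 638 CPM, and Slc6a6, the taurine transporter, at 105 CPM against 101, 33.8 and 19.5 CPM. Nfat5, the factor that controls both, was at 108 CPM against 69.1 to 92.4 CPM. The cystic disease gene Pkhd1 was at 147 CPM against 79.2 to 145 CPM, and Pkd1 had 8 UMIs.

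Mincle, the receptor of innate immune cells that the series was made to study, had 1 UMI of its gene Clec4e in the 92 cells. Syk had 1 UMI, Card9 and Clec4d 0, Tnf 2, and the TNF receptor gene Tnfrsf1a was at 51.3 CPM against 46.8 to 73.3 CPM in the other distal classes. Tnfrsf1b had 0 UMIs. Cell cycle genes were sparse, with Mki67 at 4 UMIs in 2 cells, Top2a at 6 in 5 cells and Ccnb1 at 0, and Pcna at 88.5 CPM against 41.2 to 47.6 CPM.

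The genes with the most UMIs in principal cells, mitochondrial genes left out, were Malat1 (56605 CPM), Clu, Spp1, Tmsb4x, S100g, Klk1, Gm42418, Fth1 (4615 CPM), Lcn2 and Atp1b1 (3185 CPM). Of these, S100g and Klk1 came mostly from the 17 cells of the Klk1 set, which held 4213 of 4883 and 3763 of 3786 UMIs. Fth1, the ferritin heavy chain, was lower than the 15858 CPM of distal convoluted and 10998 CPM of thick ascending limb cells.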

How the data were processed

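The authors aligned 10x 3' reads to mm10 with Cell Ranger (version 6.0 per the labels, 6.0.1 in the matrix header) and deposited 1 matrix of raw UMI counts, 32285 genes by 10474594 barcodes from 5 libraries, with no cells called. The study's methods speak of more matrices than the 5 libraries, so each library may hold separate mice or a pool of mice, which the sources used here do not settle. Cells were taken by the stated limits and gates. The members, gene lists and fold rules were chosen with earlier results of these data known. No doublet caller was run, and the gates leave out cells with Ptprc or with more than 1 UMI of another class's gate gene, so that other transcripts of those classes can remain. CPM, Poisson, binomial and conditional intervals were computed with scipy 1.17.1 and numpy 2.4.6. The 19 gate and mitochondrial genes were left out of gene counts. Named genes were those of 19 lists, the 20 leading genes, the 5 lowest per class, the 10 most abundant and the 12 of widest library range. The 4-fold rule was tested on simulated Poisson counts without spread between cells or libraries. That test therefore does not cover genes whose UMIs lie in few cells or 1 library. Alternatives covered depth, mitochondrial share, gates, free RNA, thinning, library weights, fold limits and leaving out each library. Genome positions are from GENCODE vM21 (GRCm38). 0 columns of other samples were left aside. Results for some items are not reported here.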

Additional observations from a re-analysis of the deposited data

Results flagged for a closer look

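Cells with transcripts of both collecting duct cell types lay outside the classes compared and held signal. Of the 77 cells with at least 3 Aqp2 UMIs and more than 1 Atp6v1g3 UMI, 39 met every other criterion (6, 4, 20, 2 and 7 in libraries 1 to 5), against 92 principal and 81 intercalated cells. Their median depth was 15057 UMIs, against 6779 and 6860 UMIs in those classes. They held Hsd11b2 at 1860.3 CPM and Fxyd4 at 1748 CPM beside Foxi1 at 170 CPM, Slc26a4 at 265 CPM and Aqp6 at 259 CPM. In principal cells Slc26a4 was at 1.28 CPM, and in intercalated cells Fxyd4 was at 160.0 CPM. Whether they are pairs of cells in 1 droplet was not tested.

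Another 15 cells passed the Aqp2 gate but held more than 25% mitochondrial UMIs (median 33.7%), with 4, 1, 5, 2 and 3 cells in libraries 1 to 5. Of these, 14 had a UMI of Aqp3, Hsd11b2 or Scnn1g. Their median depth was 3409 UMIs, with Hsd11b2 at 1964 CPM, Fxyd4 at 1386 CPM and Kap at 4994 CPM, against 2423, 2985 and 716 CPM in the principal cells described.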

How the results depend on the processing

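The number of principal cells was 51 with at most 10% mitochondrial UMIs and 57 with the other gate genes at 0, and lay between 36 and 88 with 1 library left out, library 3 giving 36. The share with Aqp3, Hsd11b2 or Scnn1g was 100% at 10% mitochondrial UMIs and 90.2% at 1000 UMIs per cell (97.2% to 98.7% without 1 library), and the Calb1 share 39.1% at 1000 UMIs (73.8% to 83.3%). The count of 47 genes became 146 at 2-fold, 22 at 8-fold and 79 at 20 CPM, and 41 to 65 without 1 library, 65 without library 3, when no library held 20 principal cells. Of 227 named or listed ratios past 2-fold, 224 to 227 kept their direction in every setting, and without library 3 only 224 could be computed. The number still past 2-fold ranged from 203 (without library 3) to 227, with 207 for libraries weighted equally and 209 with the other gate genes at 0. Against thick ascending limb cells Cxcl2 (-1.01) turned to 0.24 with the other gate genes at 0, 0.33 without cells over 3 times the median depth and 0.20 without library 1, with a range of -1.62 to 0.20 over the left-out libraries. Cxcl1 (-1.80) ranged from -2.71 to 0.14, the last without library 1. The causes were not tested. No comparison between conditions, paired or not, was possible because the libraries carry no group labels. Classes of the same library were compared by level only, without a paired test. Depth and 92 cells limit genes under about 50 CPM.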
